A study of Caenorhabditis elegans with 6 samples.

Results

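The genes described here are 34 genes of the oocyte, the eggshell and the early embryo of *Caenorhabditis elegans*, followed in whole worms kept with or without vitamin K2 (VK2). They were chosen by name for their known functions, though with earlier results of these data known. All 34 were listed in both deposited tables, which share 15207 genes. All 34 also passed the filter on low values that left 14191 genes to be tested. By function they fell into 7 groups: 7 genes of CCCH zinc finger proteins, 10 of other translational regulators, 1 of a germline receptor, 7 of the egg surface, egg activation and the vitelline layer, 3 of eggshell chitin and proteoglycans, 1 of yolk uptake, and 5 of messenger ribonucleoprotein (mRNP) and P granule proteins.

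RNA was sequenced from adult N2 worms, the wild-type laboratory strain, that carried no mutation or transgene named in the labels. Per the methods, the culture began with synchronized young adults. From that stage, VK2-treated worms had spent 7 days at 20°C on plates containing 0.1 µM VK2 (libraries T1, T2 and T3). Control worms had spent the same time at the same temperature on plates without it (libraries C1, C2 and C3). All worms were moved to fresh plates daily, which removed their progeny. RNA was taken from whole bodies, so any oocytes, sperm or embryos that the worms still held were measured together with the other tissues, and how many they held after 7 days was not measured here. Whether libraries of a group came from separate cultures is not stated in those labels or in the methods, and p-values therefore measure only the spread between these libraries, which may be technical.

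A growing *C. elegans* oocyte loads maternal mRNAs and holds many of them silent until maturation, fertilization or the first divisions of the embryo, under the control of RNA-binding proteins that act largely through 3′ untranslated regions. Fertilization takes place as the oocyte passes through the spermatheca. The multilayered eggshell, with its vitelline layer, chitin layer and proteoglycan layer, is assembled from proteins that the oocyte made. Yolk lipoproteins are made in the intestine and taken up by oocytes through a receptor, and P granules are RNA-rich bodies that mark the germline.

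The authors gave levels as FPKM, in which the fragments of a transcript are scaled by its length and by all mapped fragments of the library, and the FPKM of all transcripts of a gene were summed. One table held T1 and C1 and the other held T2, T3, C2 and C3. Summed over all transcripts, FPKM came to 654910 in T1 and 686279 in C1, but to between 369349 and 396004 in the 4 libraries of the second table, so levels were compared only within a table. The depth behind each value is unknown. Library C3 stood apart from the other libraries of its table: the standard deviation over genes of the log2 difference was between 0.641 and 0.695 for C3 against T2, T3 or C2, and between 0.292 and 0.350 for the pairs among T2, T3 and C2. Fitted differences of the 34 genes are therefore also given without C3.

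No difference between VK2-treated and control worms passed the test for any of these genes, and the libraries differed most in the low level of all 34 in the control library C3. The summed FPKM of the 34 genes was 10487 in T1 and 10687 in C1. In the second table it was 3745 in T2 and 3799.8 in T3, against 4656 in C2 and 1793 in C3. T1 and C1 were close together, whereas T2 and T3 lay between the control libraries. As a share of all FPKM, the 34 genes made up 1.60% in T1, 1.01% in T2 and 0.993% in T3, against 1.56% in C1, 1.18% in C2 and 0.480% in C3. In RNA from whole worms, fewer germ cells or embryos and less of these RNAs per cell cannot be told apart.

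**Figure D1:**
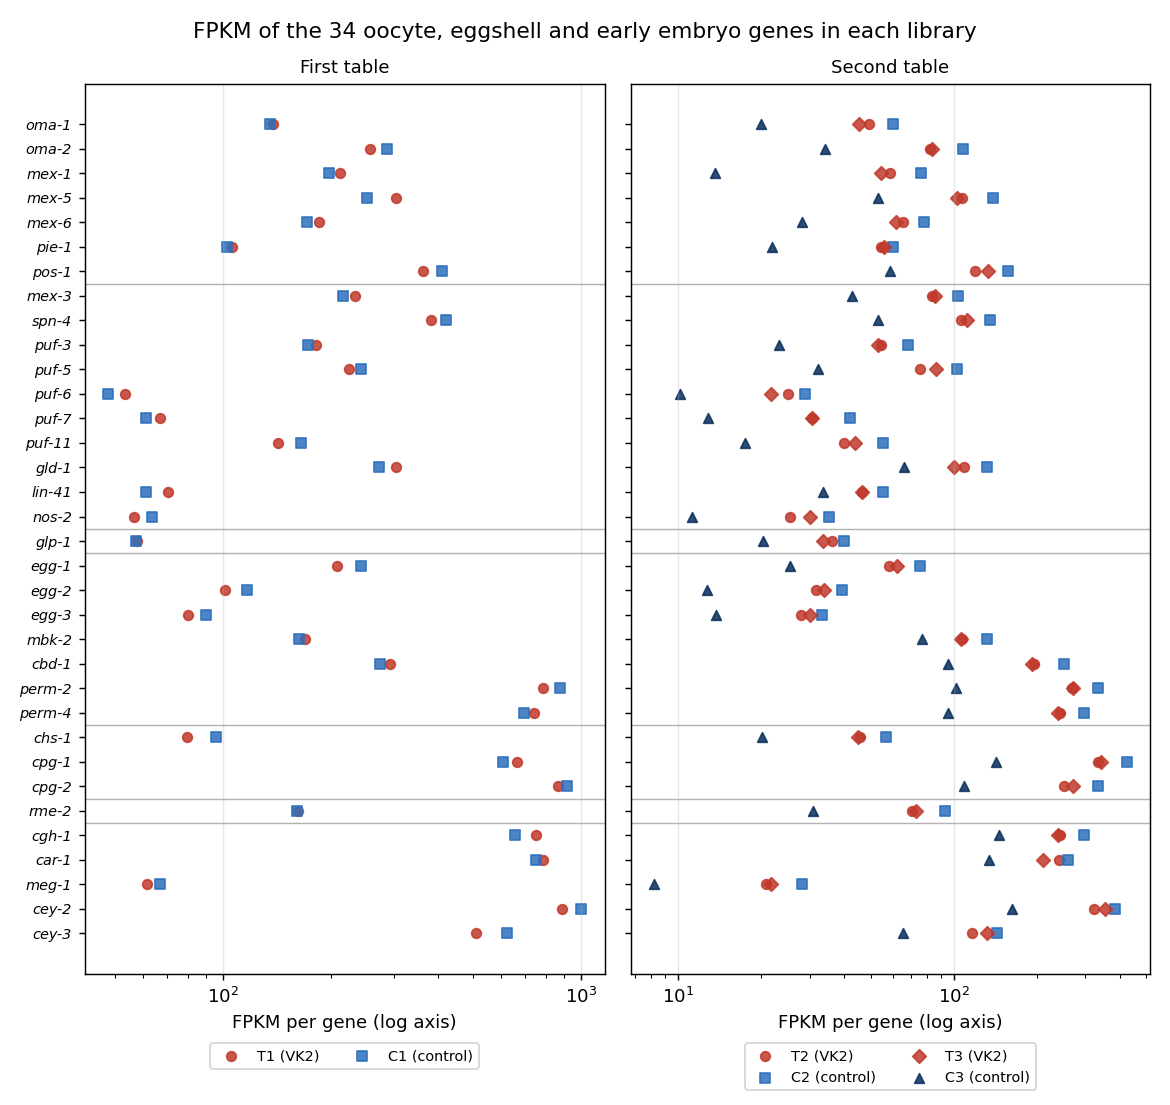
FPKM per gene on log axes for the 34 genes, with 1 point per library, T1 and C1 in the left panel and T2, T3, C2 and C3 in the right panel; grey lines separate the 7 functional groups. In the right panel C3 is the lowest and C2 the highest library for all 34 genes, with T2 and T3 between them.

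The first question was whether the genes differed between VK2-treated and control worms. The test was limma on log2(FPKM + 1) over all 6 libraries with a term for the table, two-sided, with Benjamini-Hochberg adjustment over the 14191 genes. At an adjusted p of 0.05, 0 of the 34 genes were called, against 0% of all genes tested (0 genes in limma and 0 in a test of the form Ballgown uses, with 507 and 416 genes at an unadjusted p under 0.05). At an unadjusted p under 0.05, 0 of the 34 were higher (2.87% of all genes) and 0 lower (0.705%). The smallest unadjusted p among the 34 was 0.286 for *pie-1*, and their adjusted p in limma all rounded to 1.00. The fitted difference, VK2 minus control, was above 0 in 34 of 34 (55.1% of all genes), with a median of 0.25, against 0.02 over all genes, and a range of 0.07 to 0.55. With the replicate number as a term in place of the table, 0 of 34 were higher at an unadjusted p under 0.05 (3.04%). The fitted difference was at least 1.5 times higher in 0 of 34 (3.33% of all genes) and at least 1.5 times lower in 0 of 34 (1.68%).

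The 3 pairs of libraries, T1 with C1, T2 with C2 and T3 with C3, did not share a direction. T1 was above C1 in 19 of 34 genes (51.2% of all genes tested), with a median log2 difference of 0.02 and a range of −0.29 to 0.27, and 0 of 34 were 1.5 times apart (13%). T2 was below C2 in 34 of 34 (62.1%), with a median of −0.31, against −0.07 over all genes, and 0 of 34 were at least 1.5 times lower (2.58%). T3 was above C3 in 34 of 34 (59.3%), with a median of 1.15, against 0.11 over all genes. Of these, 32 were at least 1.5 times higher (14.8%) and 25 at least 2 times higher (4.88%). No gene of the group was therefore higher in the VK2 library of all 3 pairs (10.8% of all genes).

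The direction of the fitted difference rested on C3. Without C3 it was below 0 in 34 of 34 (58% of all genes), with a median of −0.18 and a range of −0.32 to −0.05. In that fit 6 of the 34 were lower at an unadjusted p under 0.05 (3.45% of all genes), and the smallest adjusted p in limma was 0.681. C2 moved the fit the other way. Without C2 the median was 0.64, 22 of 34 were at least 1.5 times higher (7.73%) and 15 of 34 were higher at an unadjusted p under 0.05 (6.98%), with a smallest adjusted p in limma of 0.354. In the second table alone the median was 0.42. A test in limma of whether the VK2 effect differed between the tables took its spread from the 4 libraries of the second table alone, since the first holds 1 per group, and says little here. It called 0 of 34 at an adjusted p of 0.05 (0%) and 0 of 34 at an unadjusted p under 0.05 (1.81%).

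**Figure D2:**
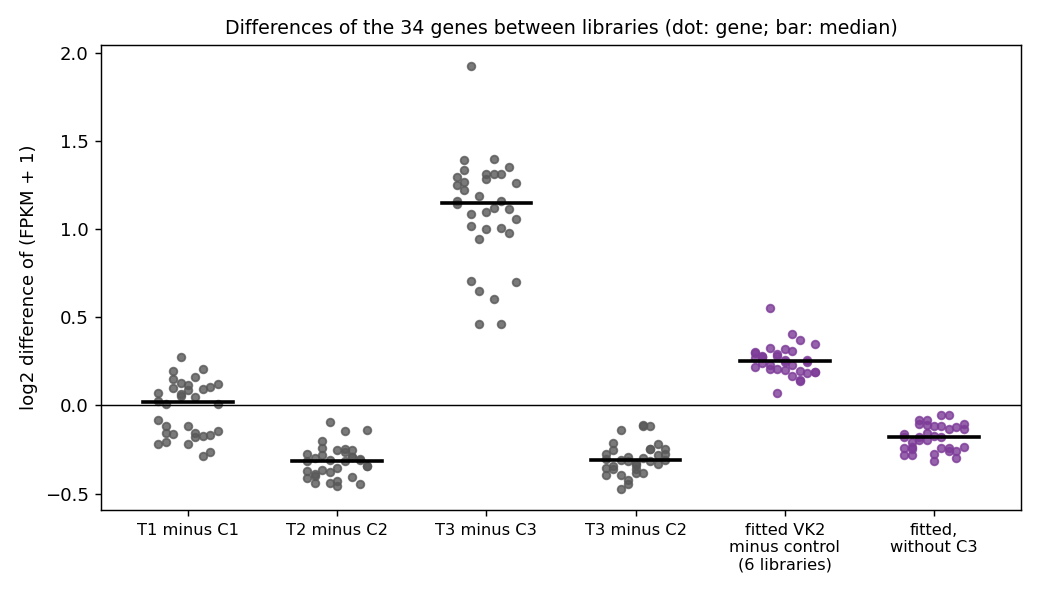
Log2 difference of (FPKM + 1) for each of the 34 genes (dots) and their median (bars), for 4 pairs of libraries and for the fitted VK2 minus control difference with all 6 libraries and without C3. T3 minus C3 lies above 0 for every gene and T3 minus C2 below 0 for every gene, and the fitted medians are 0.25 with C3 and −0.18 without it.

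The CCCH zinc finger proteins bind maternal mRNAs in oocytes and embryos. *oma-1* and *oma-2* encode partly redundant proteins needed for oocyte maturation. *oma-1* (WBGene00003864, chromosome IV, 8888976 to 8890999 of WBcel235) had 138 FPKM in T1 and 135 FPKM in C1, and 49.5 and 45.3 FPKM in T2 and T3, against 60.03 and 20.0 FPKM in C2 and C3. *oma-2* (WBGene00003865, chromosome V, 8029439 to 8031214) had 257 FPKM in T1 and 287 FPKM in C1, and 81.8 and 83.5 FPKM in T2 and T3, against 108 and 34.2 FPKM in C2 and C3. For both genes T2 and T3 lay between the control libraries, so the groups overlapped, and the fitted differences were 0.30 (SE 0.37) and 0.24 (SE 0.39). *oma-1* was at 0.471 to 0.605 of the FPKM of *oma-2* in the 6 libraries. In the second table this ratio was 0.585 in C3, against 0.605 in T2, 0.543 in T3 and 0.558 in C2.

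*mex-5* and *mex-6* encode a pair of related proteins that concentrate in the anterior of the zygote and help to place germline proteins at the posterior. *mex-5* (WBGene00003230, chromosome IV, 13353723 to 13356104) had 305 FPKM in T1 and 252 FPKM in C1, the highest of the 34 log2 differences in this pair at 0.27, and 107 and 103 FPKM in T2 and T3, against 139 and 53.1 FPKM in C2 and C3. *mex-6* (WBGene00003231, chromosome II, 9524174 to 9526359) had 186 FPKM in T1 and 172 FPKM in C1, and 65.2 and 61.6 FPKM in T2 and T3, against 78.03 and 28.3 FPKM in C2 and C3. Again the VK2 libraries of the second table fell between the control libraries for both genes. *mex-5* exceeded *mex-6* in each library, by 1.47 to 1.88 times, with the highest ratio in C3.

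*mex-1* encodes a protein needed to keep germline proteins and P granules in the germline blastomeres, and *pie-1* encodes a protein that keeps transcription off in those blastomeres. *pie-1* (WBGene00004027, chromosome III, 12426893 to 12429195) had 106 FPKM in T1 and 103 FPKM in C1, and 54.6 and 55.8 FPKM in T2 and T3, against 60.4 and 21.9 FPKM in C2 and C3, with a fitted difference of 0.41 (SE 0.35, unadjusted p in limma 0.286). *mex-1* (WBGene00003228, chromosome II, 11968637 to 11972330) had 213 FPKM in T1 and 198 FPKM in C1, and 58.7 and 54.5 FPKM in T2 and T3, against 76.1 and 13.6 FPKM in C2 and C3. Its fitted difference of 0.55 (SE 0.56, unadjusted p in limma 0.354) was the largest of the 34, and its level in C3 the farthest below that in the other libraries. *pos-1*, whose protein controls the translation of maternal mRNAs in the posterior of the embryo, had a fitted difference of 0.19.

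The other translational regulators bind mRNA through other domains. The PUF proteins PUF-3, PUF-5, PUF-6, PUF-7 and PUF-11 are relatives of Pumilio that act in oocytes. *puf-5* (WBGene00004241, chromosome II, 8575541 to 8577787) had 225 FPKM in T1 and 244 FPKM in C1, and 75.4 and 86.0 FPKM in T2 and T3, against 103 and 32.1 FPKM in C2 and C3. The groups overlapped in the second table, where C3 alone was low, and the fitted difference was 0.28 (SE 0.40).

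*puf-3* (WBGene00004239, chromosome IV, 13510307 to 13512162) had 182 FPKM in T1 and 173 FPKM in C1, and 54.6 and 53.1 FPKM in T2 and T3, against 68.2 and 23.3 FPKM in C2 and C3. Its close relative *puf-11* (WBGene00022257, chromosome IV, 6421585 to 6423497) had 143 FPKM in T1 and 166 FPKM in C1, and 40.02 and 44.0 FPKM in T2 and T3, against 55.3 and 17.5 FPKM in C2 and C3. The VK2 libraries lay between C2 and C3 for both genes, while in the first table *puf-3* was higher and *puf-11* lower in T1 than in C1. *puf-6* (WBGene00004242, chromosome II, 13039792 to 13043445) had 53.2 FPKM in T1 and 47.9 FPKM in C1, and 25.04 and 21.7 FPKM in T2 and T3, against 28.9 and 10.2 FPKM in C2 and C3. *puf-7* (WBGene00004243, chromosome IV, 5486713 to 5490322) had 66.6 FPKM in T1 and 60.8 FPKM in C1, and 30.7 and 30.5 FPKM in T2 and T3, against 41.98 and 12.9 FPKM in C2 and C3. T1 was above C1 for both, and C3 was again the lowest library of its table. How the authors assigned reads shared by near-identical relatives is not stated, so the split within such pairs is uncertain.

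Among the remaining regulators, *mex-3* encodes a KH domain protein that represses translation in the anterior of the embryo. *spn-4* encodes an RNA recognition motif protein of the early embryo, and *nos-2* a Nanos protein of the germline precursors. *gld-1* encodes a STAR family translational repressor that oocyte meiotic prophase requires. *lin-41* encodes a TRIM-NHL protein that controls oocyte growth and meiotic maturation. The fitted differences of the 10 regulators lay between 0.14 (*lin-41*) and 0.32 (*puf-6*), with a median of 0.25. T1 was above C1 in 6 of the 10 (51.2% of all genes tested), T2 below C2 in 10 (62.1%), and T3 above C3 in 10 (59.3%). *glp-1*, which encodes the Notch receptor that keeps germline stem cells dividing and is also made from maternal mRNA in the embryo, had 57.5 FPKM in T1 and 57.1 FPKM in C1, and 36.3 and 33.5 FPKM in T2 and T3, against 39.99 and 20.3 FPKM in C2 and C3. It was thus level in the first pair and lowest in C3 in the second table.

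The proteins of the egg surface are made before fertilization. *egg-1* and *egg-2* encode related LDL receptor repeat proteins of the oocyte surface that are needed for sperm entry. *egg-1* (WBGene00015083, chromosome III, 5728180 to 5730159) had 209 FPKM in T1 and 244 FPKM in C1, and 58.0 and 62.1 FPKM in T2 and T3, against 75.4 and 25.5 FPKM in C2 and C3. *egg-2* (WBGene00019811, chromosome III, 7058527 to 7060583) had 101 FPKM in T1 and 117 FPKM in C1, and 31.8 and 33.7 FPKM in T2 and T3, against 39.3 and 12.8 FPKM in C2 and C3. Both were lower in T1 than in C1 and lay between C2 and C3 in T2 and T3, and *egg-1* was at 1.83 to 2.08 times the FPKM of *egg-2* in every library.

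*perm-2* and *perm-4* encode proteins of the vitelline layer that help to make the eggshell impermeable, and they are neighbours on chromosome IV with 1682 bp between them. *perm-2* (WBGene00016636, 1126790 to 1128865, plus strand) had 786 FPKM in T1 and 878 FPKM in C1, and 268 and 271 FPKM in T2 and T3, against 334 and 102 FPKM in C2 and C3. *perm-4* (WBGene00016638, 1121494 to 1125107, minus strand) had 742 FPKM in T1 and 697 FPKM in C1, and 242 and 238 FPKM in T2 and T3, against 297 and 95.5 FPKM in C2 and C3. The pair moved differently in the first table, down for *perm-2* and up for *perm-4*, and alike in the second, where C3 was the lowest library. Their fitted differences were 0.31 (SE 0.41) and 0.37 (SE 0.38), the second of which was the third largest of the 34.

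*egg-3* encodes a phosphatase-like protein of the oocyte cortex, *cbd-1* a chitin-binding protein of the vitelline layer, and *mbk-2* a DYRK kinase that marks oocyte proteins for removal after meiosis. *mbk-2* (WBGene00003150, chromosome IV, 13009158 to 13035961), described because its fitted difference was the smallest, had 169 FPKM in T1 and 163 FPKM in C1, and 107 and 106 FPKM in T2 and T3, against 132 and 76.7 FPKM in C2 and C3. Its fitted difference was 0.07 (SE 0.21), and none of the 34 had one below 0. Over the 7 genes of the egg surface, T1 was above C1 in 3 (51.2% of all genes tested), T2 below C2 in 7 (62.1%) and T3 above C3 in 7 (59.3%).

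Chitin synthase is encoded by *chs-1*, and the chondroitin proteoglycans of the inner eggshell by *cpg-1* and *cpg-2*. *cpg-1* (WBGene00000465, chromosome III, 4489359 to 4491392) had 663 FPKM in T1 and 609 FPKM in C1, and 334 and 342 FPKM in T2 and T3, against 425 and 141.98 FPKM in C2 and C3. *cpg-2* (WBGene00015102, chromosome III, 7102092 to 7103990) had 866 FPKM in T1 and 917 FPKM in C1, and 250.1 and 270.2 FPKM in T2 and T3, against 333 and 109 FPKM in C2 and C3. *cpg-1* was below *cpg-2* in the first table and above it in the second. The fitted differences of *cpg-1*, *cpg-2* and *chs-1* were 0.35, 0.27 and 0.18. The *chs-1* transcript T25G3.2.2, listed only in the first table, was at 0 FPKM in T1 and 22.6 FPKM in C1. The other, T25G3.2.1, was at 79.3 FPKM in T1 and 73.0 FPKM in C1. With only transcripts listed in both tables, the fitted difference of *chs-1* was 0.31. *rme-2*, which encodes the yolk receptor of the oocyte, had 162 FPKM in T1 and 161 FPKM in C1, and 70.3 and 73.1 FPKM in T2 and T3, against 93.2 and 30.8 FPKM in C2 and C3, so it too was level in the first pair and lowest in C3.

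Among the mRNP and P granule genes, *cgh-1* encodes a DEAD-box helicase and *car-1* an Sm-like protein that travel with stored maternal mRNAs, *meg-1* a disordered protein of embryonic P granules, and *cey-2* and *cey-3* Y-box proteins that bind mRNA in the germline. *meg-1* (WBGene00010492, chromosome X, 13927036 to 13929634) was the only gene of the 34 on the X chromosome, and had 61.2 FPKM in T1 and 66.6 FPKM in C1, and 20.8 and 21.8 FPKM in T2 and T3, against 28.3 and 8.20 FPKM in C2 and C3. *cey-2* (WBGene00000473, chromosome I, 5619569 to 5620669) had 886 FPKM in T1 and 1003 FPKM in C1, and 323 and 354 FPKM in T2 and T3, against 384 and 162 FPKM in C2 and C3. *cey-3* (WBGene00000474, chromosome I, 5571796 to 5572949) had 510.2 FPKM in T1 and 623 FPKM in C1, and 117 and 132 FPKM in T2 and T3, against 143 and 65.2 FPKM in C2 and C3. T1 was below C1 for these 3 genes, and *cey-3* had the lowest of the 34 log2 differences in that pair, −0.29. The fitted differences of the 5 genes lay between 0.14 (*cey-3*) and 0.25 (*meg-1*).

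The other comparison set C3 against T2, T3 and C2. With 1 library on one side it has no test, and it shares C3 with the comparison of T3 with C3. C3 was the lowest of the 4 libraries for 34 of 34 genes (48% of the 14355 genes of the second table with a mean FPKM of at least 1), and C2 was the highest for 34 of 34 (38%), both together holding for 34 of 34 (28.7%). The summed FPKM in C3 was 47.9% of that in T2, 47.2% of that in T3 and 38.5% of that in C2. C3 was at least 1.5 times lower than T2 in 32 genes (16.5%), than T3 in 32 (14.6%) and than C2 in 34 (20.1%). It was at least 2 times lower than T2 in 22 genes (5.16%), than T3 in 25 (5.12%) and than C2 in 29 (6.35%).

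The difference of C3 from the mean of T2, T3 and C2 on the log2 scale had a median of −1.26 over the 34 genes, against −0.12 over all genes of the table, and an SD over genes of 0.29. It was at least 2 times lower in 27 of 34 (5.03%). The remaining 7 were *cey-3* (−0.99), *cgh-1* and *glp-1* (both −0.82), *car-1* (−0.81), *gld-1* (−0.77), *mbk-2* (−0.57) and *lin-41* (−0.54). After *mex-1* (−2.12), the farthest below were *perm-2* (−1.49), *perm-4* (−1.42), *puf-5* (−1.41), *meg-1* (−1.41) and *egg-2* (−1.38). By group, the medians were −1.35 for eggshell chitin and proteoglycans, −1.32 for CCCH proteins, −1.32 for yolk uptake, −1.31 for the egg surface, −1.25 for the other translational regulators, −0.99 for mRNP and P granule proteins and −0.82 for *glp-1*. The 19 genes listed with 1 transcript in both tables had a median of −1.31 and a range of −1.49 to −0.81.

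**Figure D3:**
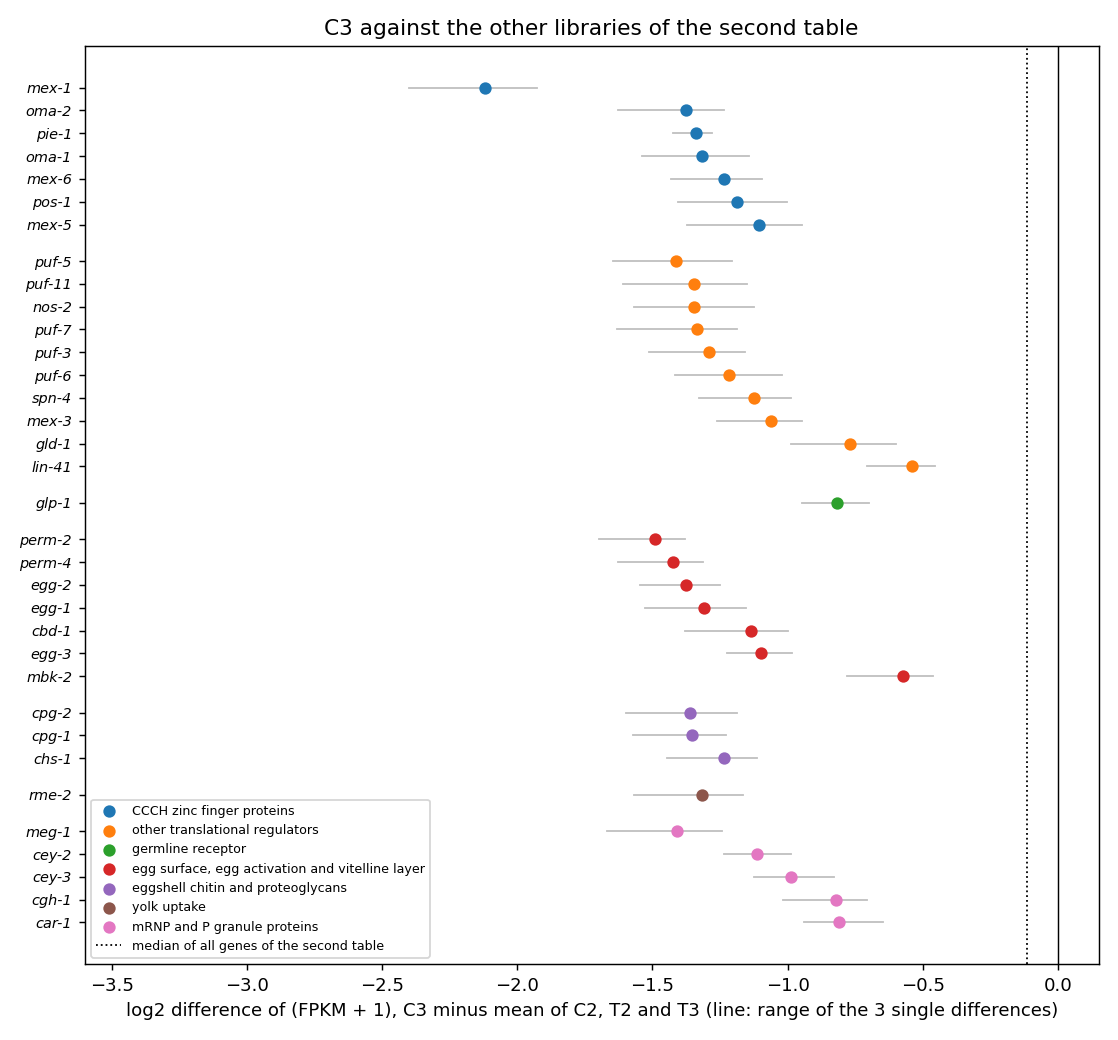
Log2 difference of (FPKM + 1) between C3 and the mean of T2, T3 and C2 for each of the 34 genes (points, coloured by group), with a line over the range of the 3 single differences and a dotted line at the median of all genes of the table. All points lie left of the dotted line at −0.12, from −2.12 for *mex-1* to −0.54 for *lin-41*.

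The differences among the other libraries were smaller. T3, compared with C2, was lower in 34 of 34 (62.7%), with a median of −0.31 and a range of −0.47 to −0.11, and 0 of 34 were at least 1.5 times lower (1.67%), as for T2 against C2 (2.57% of these 14355 genes). T2 minus T3 had a median of −0.02 and a range of −0.23 to 0.20, and 0 of 34 were 1.5 times apart (4.94%). The order of the 4 libraries was therefore C3, then T2 and T3 close together, then C2. Under upper quartile scaling and under quantile normalization T2 was below C2 in 33 genes and above it in 1, whereas T3 stayed above C3 and below C2 in all 34 under both.

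The position of *mex-1* in C3 lay in the listed values of a single transcript, a point followed up after its values were seen. Transcript W03C9.7b.3 was listed at 44.5 FPKM in T2 and 42.2 FPKM in T3, against 57.6 FPKM in C2 and 0.000944 FPKM in C3. The other *mex-1* transcripts of the table summed to 14.3 FPKM in T2 and 12.3 FPKM in T3, against 18.5 FPKM in C2 and 13.6 FPKM in C3, a log2 difference of −0.12 for C3. Without *mex-1* the range over the other genes began at −1.49 and the SD was 0.25. The transcript was thus near 0 only in C3, and how the FPKM were divided among overlapping transcripts was not tested.

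**Figure D4:**
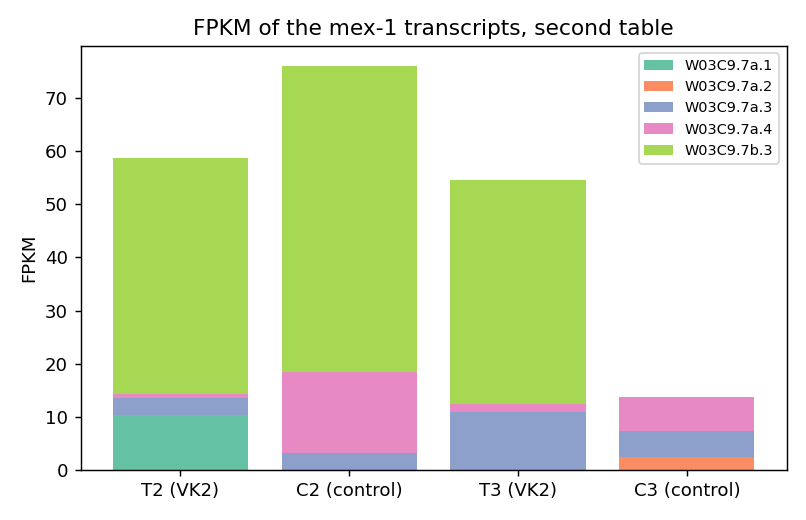
FPKM of the *mex-1* transcripts in the libraries of the second table, stacked from 0. W03C9.7b.3 makes up most of the bar in T2 (44.5 FPKM), T3 (42.2 FPKM) and C2 (57.6 FPKM) and is not visible in C3 (0.000944 FPKM).

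Other gene lists give the setting of these values. Of 41 other oocyte and embryo genes, 34 had a fitted difference above 0 (55.1% of all genes), with a median of 0.13. In limma 0 of the 41 passed an unadjusted p of 0.05 (2.87% of all genes higher and 0.705% lower). The direction of their fitted difference also rested on C3. The median was −0.06 for T1 minus C1 (15 of 41 higher, against 51.2% of all genes). It was −0.20 for T2 minus C2 (36 of 41 lower, against 62.1%). Without C3 the fitted difference was below 0 in 34 of the 41 (58% of all genes), with a median of −0.16. Their summed FPKM was 4959 in T1 and 5121 in C1, and 2019 in T2 and 2061 in T3, against 2361 in C2 and 1567 in C3. The largest fitted differences were those of *nos-1* (0.29), *cpg-3* (0.29) and *cpg-8* (−0.28). Their median difference was 0.62 for T3 minus C3, about the size seen for 10 P granule genes (0.52) and 19 genes of meiosis and the mitotic germline (0.56), and below that of the 34 genes (1.15). Their median for C3 against the mean of T2, T3 and C2 was −0.68, and C3 was lowest in 36 of the 41 (48% of the genes of the second table). Of 14 listed genes that are switched on in the embryo itself, 5 were tested. They had medians of −0.32 for T1 minus C1, −0.52 for T2 minus C2 and 1.31 for T3 minus C3. Their levels were low, from 0.223 FPKM (*pes-10*) to 3.63 FPKM (*vet-2*) in C3, so these medians are uncertain.

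The sperm list differed from the 34 genes in the first pair. Its 33 tested genes, most of them major sperm proteins, had a median of 0.88 for T1 minus C1, 0.05 for T2 minus C2 and 0.87 for T3 minus C3, and 18 of 33 were higher at an unadjusted p under 0.05 (2.87% of all genes) with 0 at an adjusted p of 0.05 in limma. The sperm genes were also low in C3 (median difference −0.86 from the mean of T2, T3 and C2). Without C3, 33 of 33 stayed above 0 with a median of 0.39, against 5954 of all 14191 genes. In that fit 12 of 33 were higher at an unadjusted p under 0.05 in limma, against 0 of the 34 genes and 3.76% of all genes. The major sperm proteins are a family of close relatives, and how reads shared among them were assigned is not stated. These counts may therefore not be of separate measurements. The summed FPKM of the whole list was 1802 in T1 and 969.7 in C1, and 1268 in T2 and 1297 in T3, against 1239.9 in C2 and 679 in C3. The summed FPKM of the 6 yolk protein genes was 7093 in T1 and 6978 in C1, and 4595 in T2 and 6009 in T3, against 6548 in C2 and 934 in C3, so yolk mRNA, which is made in the intestine, was also low in C3. The median of the yolk genes was 2.75 for T3 minus C3 and −2.62 for C3 against the mean of T2, T3 and C2, and their fitted difference had a median of 0.70 with C3 and −0.17 without it. The part of either list in the values of the 34 genes was not tested.

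Lists of other body tissue genes had medians nearer 0 in C3, although single genes lay well apart. The median difference of C3 from the mean of T2, T3 and C2 was −0.02 over 10 intestinal genes (range −0.75 to 4.83), 0.00 over 10 genes of body wall muscle (−0.28 to 0.74) and 0.17 over 12 neuronal genes (−0.27 to 0.31). It was 0.24 over 10 genes of hypodermis and cuticle (−0.10 to 1.22), −0.02 over 7 genes of the somatic gonad (−1.18 to 0.23) and −0.14 over 3 genes of vulva and uterus (−0.45 to 0.23). The cuticle genes *dpy-13* (1.22), *rol-6* (1.08) and *bli-1* (0.87) and the muscle gene *mup-2* (0.74) were higher in C3, and the fatty acid elongase gene *elo-2* (−0.75) was lower. None of these genes was at 0 in C3, where the muscle genes summed to 2616 FPKM, against 2333 FPKM in T2, 2642 FPKM in T3 and 2793 FPKM in C2. Within the gonad list *inx-8*, a gap junction gene of the sheath, was lower in C3 (−1.18), and within the intestinal list *mtl-2*, a metallothionein gene, had 209.8 FPKM in C3, against 7.41 FPKM in T2, 7.23 FPKM in T3 and 4.82 FPKM in C2.

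**Figure D5:**
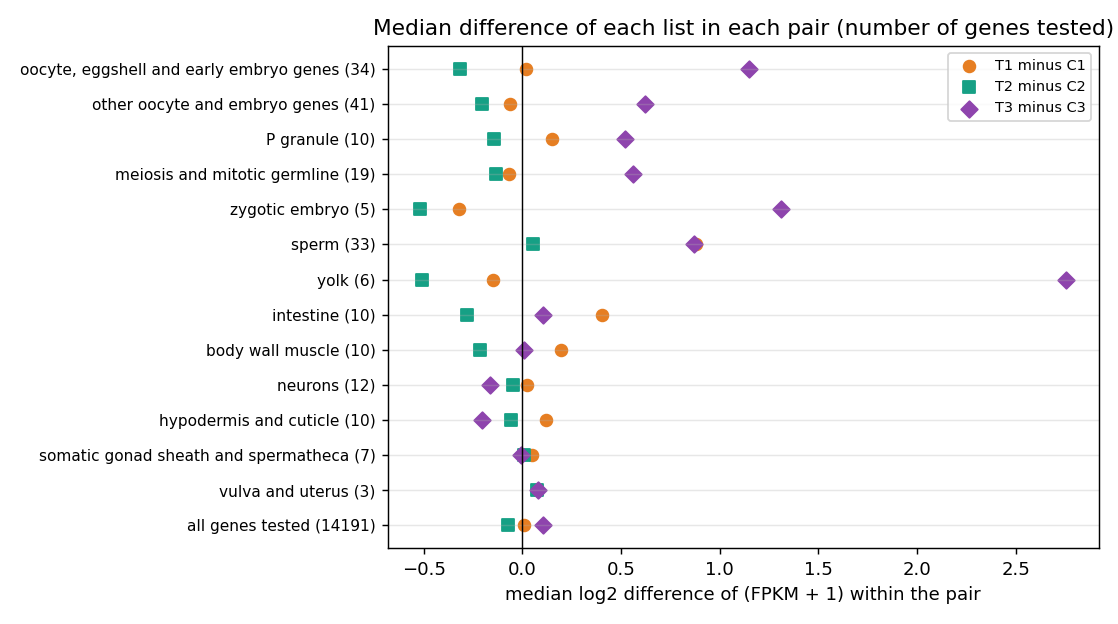
Median log2 difference of (FPKM + 1) within each pair of libraries for the 34 genes, for the other lists with the number of genes tested, and for all genes. T3 minus C3 is 1.15 for the 34 genes, 2.75 for yolk genes and between −0.20 and 0.10 for the 6 lists of body tissues, whereas T1 minus C1 is 0.88 for sperm genes and 0.02 for the 34 genes.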

How the data were processed

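RNA from whole N2 worms was made into stranded libraries, 3 per group, and sequenced in pairs of reads. Per the methods, the authors aligned reads to WBcel235 with HISAT2 (version 2.1.0 in the submitters' processing notes, which also name cutadapt, StringTie and STAR 2.5.2b) and calculated FPKM with Ballgown. They deposited FPKM per transcript in 2 tables, 1 of T1 and C1 and 1 of T2, T3, C2 and C3, with 24354 and 25370 transcripts. In the table of T1 and C1, 49 lines lacked separators and were split again. No source used here says why the libraries were divided, and the table cannot be told apart from a sequencing batch.

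FPKM was summed per gene. Genes that both tables list, at an average of at least 1 FPKM over the libraries, were tested with limma 3.58.1 (R 4.3.3, statmod 1.5.0, trend on, robust off) on log2(FPKM + 1), VK2 and the table being terms. Fold changes on this scale understate those of low genes. "At least 1.5 times" refers to this scale. A search for steps of whole fragments found none (concentration at the best step 0.0901 to 0.165). In simulated data the values were rounded to an exact step, so its recovery there (0.971 to 1) was set in advance. The search therefore cannot speak to depth, and the depth of each library and its precision are unknown. Python 3.11.15, numpy 2.4.6, pandas 2.3.3 and matplotlib 3.10.9 were also used. The fit was tested on simulated data. Gene positions are from Ensembl release 115 of the same build, inside whose genes 92 of the 134 transcript positions of the 34 genes in the tables lie. A gene's value covers its whole transcripts.

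The genes and lists were chosen with earlier results of these data known. Values in all libraries are given for the 3 genes with the largest fitted difference, the 6 with the largest difference of C3, and each pair of paralogs. *glp-1*, *rme-2*, *mbk-2* and single transcripts were added after their values were seen. The lists hold other oocyte and embryo genes, P granule, meiosis and mitotic germline, zygotic embryo, sperm, yolk, intestine, body wall muscle, neurons, hypodermis and cuticle, somatic gonad, and vulva and uterus. Replicate numbers come from the labels. After group means were removed, Pearson's r across genes was 0.881 for T1 with C1, 0.556 for T2 with C2 and 0.543 for T3 with C3, but 0.608 for T2 with C3 and 0.613 for T3 with C2, and T2 minus T3 against C2 minus C3 gave −0.111. Differences between the tables were left in, and they raise r between libraries of the same table. The value for T1 with C1 therefore says nothing about pairing. Alternatives were other pseudocounts, filters, scalings, model terms and transcript sums, and each library left out.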

Additional observations from a re-analysis of the deposited data

How the results depend on the processing

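In 15 alternatives that left out no library, the fitted difference stayed above 0 in all 34 genes, with medians of 0.22 to 0.42. At least 1.5 times higher was 1 of 34 genes in the second table alone (487 of 14191 genes tested). With the transcript of highest mean FPKM it was 2 of 34 (717 of 14067), against 0 in the main fit (473 of 14191). The 2 genes were *mex-1* (1.69) and *egg-2* (1.52), and both had their FPKM divided differently among transcripts between libraries. With 1 library left out at a time, the median ranged from −0.18 to 0.64, the number of genes above 0 was 0 to 34 and the number at least 1.5 times higher 0 to 22. The lowest median and the count of 0 came without C3, and the highest median and the count of 22 without C2. Over the same fits *mex-1* ranged from −0.20 to 1.17, *pie-1* from −0.052 to 0.76, *perm-4* from −0.14 to 0.79 and *mbk-2* from −0.15 to 0.29, each below 0 only without C3. The genes called at an adjusted p of 0.05 among all tested ranged from 0 to 2 (1 without T2, 2 without C3), and the smallest adjusted p of any of the 34 over all alternatives was 0.354. Where T1 or C1 was left out, the comparison rested on the second table.

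With a replicate block that replaced the table term, the median was 0.25 and 0 genes were called, with 588 at an unadjusted p under 0.05, so the block changed no call. A crossed pairing in the second table, added after the data were seen, called 0 genes, with 616 at an unadjusted p under 0.05.

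The median difference of C3 from the mean of T2, T3 and C2, −1.26 as deposited, was −1.07 under upper quartile scaling and −1.30 at the lowest, and 34 genes were lower under each alternative. Upper quartile scaling moved the median of all genes from −0.12 to 0.05, and relative to that median the 34 genes were at −1.13, against −1.15 as deposited. Depth is unknown, so it cannot be said which of these values it limits.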

Other observations

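For some of the 34 genes the division of FPKM among transcripts varied between libraries of the same group. The FPKM of *egg-2* were listed almost wholly under R01H2.3.1 in T1 (100.9 FPKM), T3 (33.7 FPKM) and C2 (39.2 FPKM), and mostly under R01H2.3.2 in T2 (29.7 FPKM), C1 (112 FPKM) and C3 (11.9 FPKM). The *mbk-2* transcript F49E11.1l was at 0.185 FPKM in T2 and 0.219 FPKM in T3, against 22.8 FPKM in C2 and 0.137 FPKM in C3. For *lin-41*, transcript C12C8.3a.1 was at 18.6 FPKM in T2 and 18.8 FPKM in T3, against 21.9 FPKM in C2 and 9.30 FPKM in C3, while C12C8.3b.1 was at 13.6 FPKM in T2 and 12.3 FPKM in T3, against 15.1 FPKM in C2 and 13.3 FPKM in C3. The lower sum of *lin-41* in C3 thus lay mainly in the first of these transcripts.

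The ratio within some pairs of paralogs varied within the first table. *puf-3* was at 1.28 times *puf-11* in T1 and 1.04 times in C1, and *perm-2* at 1.06 times *perm-4* in T1 and 1.26 times in C1. For 2 other pairs the ratio differed between the tables. *cpg-1* was at 0.765 times *cpg-2* in T1 and 0.664 times in C1, but at 1.34 times in T2 and 1.26 times in T3, against 1.27 times in C2 and 1.30 times in C3. *cey-2* was at 1.74 times *cey-3* in T1 and 1.61 times in C1, and at 2.77 times in T2 and 2.68 times in T3, against 2.68 times in C2 and 2.49 times in C3. In C3 the ratio of *cpg-1* to *cpg-2* lay within the range of T2, T3 and C2, and that of *cey-2* to *cey-3* just below it. The ratio in C3 exceeded that in T2, T3 and C2 for *mex-5* to *mex-6* (1.88) and *egg-1* to *egg-2* (1.99). For *perm-2* to *perm-4* (1.07) it was lower. For *oma-1* to *oma-2*, *puf-3* to *puf-11* and *puf-6* to *puf-7* it lay within their range.

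Of the 34 genes, 10 lie on chromosome IV, 7 on I, 7 on III, 6 on II, 3 on V and 1 on X. The share on X was 2.94%, against 13.9% of the tested genes with a position.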
